A study of Mus musculus with 5 samples.

Results

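The NRF2 antioxidant system was examined in ID8 cells (a cancer line derived from mouse ovarian surface epithelium) through 10 genes: Nfe2l2, Keap1, Gclc, Gclm, Gss, Gsr, Txnrd1, Srxn1, Prdx1 and Nqo1. Its members were every probe set of the array annotated to exactly 1 of these genes, which gave 17 of 20380 such probe sets and covered 9 of the 10 genes, out of 12393 genes in all. Prdx1 had 0 probe sets of its own, because all 5 that carry its name are annotated to a second gene, Gm21399, as well, so Prdx1 is not reported. The arrays compared ID8 cells grown in DMEM with 10% ascites fluid from mice bearing ID8 tumours (2 arrays, labelled replicates 2 and 3) with parental ID8 cells kept in DMEM that held 10% fetal bovine serum (FBS; 3 arrays, replicates 1, 2 and 3). Exposure to ascites lasted 7 days; for the serum culture no length is stated plainly, nor is it said whether serum was also present in the ascites medium. All arrays are of 1 cell line, and separate cultures are not documented for the replicates, so a p-value here reflects array-to-array spread that may be technical.

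NRF2, the product of Nfe2l2, is a transcription factor that is held in the cytoplasm and sent for degradation by KEAP1, an adaptor of a ubiquitin ligase. When reactive cysteines of KEAP1 are modified by oxidants or electrophiles, or when KEAP1 is sequestered, newly made NRF2 enters the nucleus, pairs with small MAF proteins and binds antioxidant response elements of its target genes. Its core targets make glutathione, recycle glutathione and thioredoxin, and reduce quinones, and in many carcinomas, ovarian cancer among them, the pathway is known for its part in resistance to platinum drugs. Control of NRF2 lies largely at the level of protein stability, which an array of transcripts does not measure.

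The promoter windows of 5 of the genes are shown because NRF2 acts through a short element in such regions and because the genes that rose are among its targets. Of the genes shown, only Gclm and Txnrd1 rose. Apart from that of Keap1, only windows that held a match to the core of this element are shown. Each runs from 250 bases before to 50 bases after an annotated gene start, 5′ to 3′ along the gene, in lower case, with matches to the core of the antioxidant response element, TGACNNNGC on either strand, in capitals. The sequences are RefSeq's, build GRCm38.p6. The windows are Gclm (chr3:122245307-122245606, plus strand), Txnrd1 (the second of its 3 annotated starts, chr10:82858956-82859255, plus strand), Srxn1 (chr2:152105274-152105573, plus strand), Nfe2l2 (chr2:75704614-75704913, minus strand) and Keap1 (chr9:21239283-21239582, minus strand).
Gclm: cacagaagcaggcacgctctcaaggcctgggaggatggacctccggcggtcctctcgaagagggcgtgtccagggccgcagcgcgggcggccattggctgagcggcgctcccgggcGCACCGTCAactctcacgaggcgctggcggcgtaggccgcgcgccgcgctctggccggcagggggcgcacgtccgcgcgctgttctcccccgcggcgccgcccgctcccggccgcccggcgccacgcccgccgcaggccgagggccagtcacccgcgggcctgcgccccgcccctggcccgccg
Txnrd1: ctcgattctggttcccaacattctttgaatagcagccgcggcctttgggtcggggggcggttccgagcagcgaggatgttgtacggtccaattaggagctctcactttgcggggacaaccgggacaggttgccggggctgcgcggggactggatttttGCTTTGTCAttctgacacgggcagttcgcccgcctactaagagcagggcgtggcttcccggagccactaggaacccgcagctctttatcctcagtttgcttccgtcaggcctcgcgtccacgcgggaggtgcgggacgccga
Srxn1: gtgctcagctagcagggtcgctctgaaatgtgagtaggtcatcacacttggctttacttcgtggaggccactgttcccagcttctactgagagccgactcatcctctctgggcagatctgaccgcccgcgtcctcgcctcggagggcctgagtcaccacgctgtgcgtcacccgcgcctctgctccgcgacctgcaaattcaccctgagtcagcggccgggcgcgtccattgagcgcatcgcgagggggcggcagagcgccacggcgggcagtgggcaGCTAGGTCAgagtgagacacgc
Nfe2l2: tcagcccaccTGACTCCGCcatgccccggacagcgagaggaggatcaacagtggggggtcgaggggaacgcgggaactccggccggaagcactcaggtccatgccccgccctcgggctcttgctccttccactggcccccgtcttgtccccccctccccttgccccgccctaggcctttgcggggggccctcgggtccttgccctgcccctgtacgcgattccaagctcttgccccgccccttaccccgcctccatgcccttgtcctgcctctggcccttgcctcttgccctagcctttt
Keap1: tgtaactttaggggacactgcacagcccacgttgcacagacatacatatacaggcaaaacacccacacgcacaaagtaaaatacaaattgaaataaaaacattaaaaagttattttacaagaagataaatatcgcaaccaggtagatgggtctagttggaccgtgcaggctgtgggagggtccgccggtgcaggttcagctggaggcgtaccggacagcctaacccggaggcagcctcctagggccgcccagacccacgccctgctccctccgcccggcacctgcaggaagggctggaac

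The core was found once in each of the first 4 windows. In Gclm its first base as printed lay 134 bases before the start, in Txnrd1 92 bases before it, in Nfe2l2 240 bases before it, and in Srxn1 29 bases into the gene. Except in Nfe2l2 the motif was on the strand opposite to that printed, so this base is the last of the motif. On the strand that carries the motif the matches read TGACGGTGC in Gclm, TGACAAAGC in Txnrd1, TGACCTAGC in Srxn1 and TGACTCCGC in Nfe2l2. The Keap1 window held 0 matches, as did those of Gss, Nqo1 and the other Txnrd1 starts, which says only that these letters are not in these windows. Windows were found for 8 of the 10 genes, not for Gclc and Gsr, and 5 of the 8 held the core, the fifth being Prdx1. For comparison, 14.0% of the 27025 genes with a window held the core in at least 1 window, and 12.4% of the 32851 windows did. An AP-1 site, TGACTCA on either strand, which can share bases with the element, was present 2 times in the Srxn1 window, apart from the core, and 2 times in the Prdx1 window, where one of them overlaps the core. It was found in 2 of the 8 genes, against 5.9% of all genes with a window and 5.2% of all windows. A match is a description of the letters and not evidence of binding.

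The serum arrays were uneven. Over genes, the SD of the log2 difference was 0.117 between FBS replicates 1 and 2 and 0.427 between FBS replicate 3 and either of these, and the ascites arrays differed from each other by 0.239, whereas ascites and FBS arrays differed by 0.508 to 0.6. Whether FBS replicates 1 and 2 are repeats of 1 sample cannot be told from the labels. Because they were nearly alike and FBS replicate 3 stood apart, values without replicate 3 are given beside those it moved. Some transcripts expected of an ovarian surface line were bright on every array. Among them were mesothelin (Msln, 11.46 to 12.72), the transcription factor gene Wt1 (10.83 to 12.75) and keratin 8 (Krt8, 12.13 to 13.46). The adhesion gene Cdh1 was dim (5.73 to 5.80). Of 10 measured ovarian surface markers 0 rose and 2 fell (the keratin genes Krt18 and Krt19), against 2.59% of all genes fallen, and 8 were lower in ascites, with a median log2 change of -1.19. Their summed log2 signal was 102.42 and 99.2 in ascites and 115.85, 115.84 and 106.92 in FBS, so that FBS replicate 3 lay nearer to the ascites arrays. Keratin 7 (Krt7) read 5.37 and 5.12 in ascites and 8.0, 8.08 and 5.66 in FBS, with FBS replicate 3 as dim as the ascites arrays. Bnc1, the marker with the largest change, read 8.35 and 7.71 in ascites and 11.78, 11.67 and 10.21 in FBS. Its log2 change of -3.19 did not pass (adjusted p = 0.0605 by limma). The part of these changes in the results on the NRF2 system was not tested. Markers of macrophages, T cells, B cells, neutrophils, endothelium and red cells, 35 genes in all, gave 0 calls, with list medians between 4.32 and 5.84 in either group. The pan-leukocyte gene Ptprc read 3.43 and 3.37 in ascites and 3.51, 3.34 and 3.43 in FBS. Signals in or below the range of those medians were not shown to lie above background. Single markers read higher, such as the T cell gene Cd4 (6.81 to 7.11) and the macrophage gene Cd14, which reached 7.74 in FBS replicate 3. The same therefore holds up to about the level of that Cd14 reading. A change with the readings of either group at or below it is of uncertain size.

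Among the members, transcripts of both subunits of the enzyme that starts glutathione synthesis (Gclc and Gclm) and of cytosolic thioredoxin reductase (Txnrd1) rose in ascites, while Nfe2l2 itself and Keap1 did not pass the test. Of the 9 measured genes, 3 rose and 0 fell, against 2.69% of all genes risen, 2.59% fallen and 5.28% changed in either direction. The members were chosen with earlier results of these data known, so the shares of all genes are given for description only. The test was limma's moderated test with Benjamini-Hochberg adjustment over 12393 genes, at a threshold of 0.05. A bulk signal does not tell fewer cells of a kind from less transcript per cell. In all, 8 of the 9 genes were higher in ascites, with a median log2 change of 1.04 against 0.00 over all genes. The arrays of the 2 groups did not overlap for 6 genes that were higher and 1 that was lower, against 18.6% and 19.4% of all genes. At the level of probe sets, 5 of 17 rose and 0 fell, where 2.53% of all probe sets rose and 2.14% fell, and 12 lay without overlap above FBS and 2 below, where 19.5% and 17.7% of all probe sets did so.

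**Figure D1:**
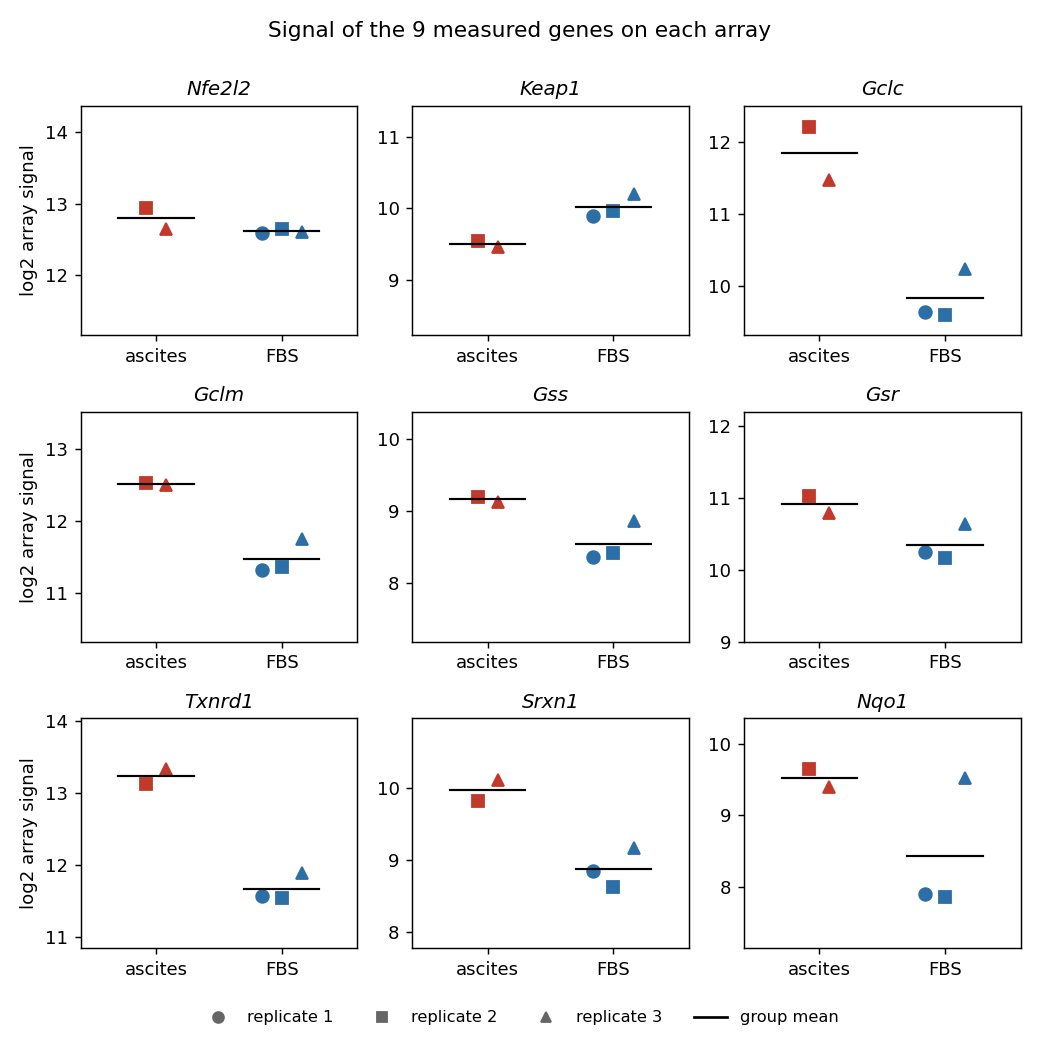
Log2 array signal of the 9 measured genes on each array (1 probe set per gene, the one with the highest mean), with ascites arrays on the left and FBS arrays on the right of each panel. Marker shape gives the replicate number, the line is the group mean, and every panel spans the same range of log2 units. Gclc, Gclm and Txnrd1 lie well apart between the groups, and for Nqo1 the FBS replicate 3 point lies level with the ascites points.

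Gclc encodes the catalytic subunit of glutamate-cysteine ligase, the rate-limiting enzyme of glutathione synthesis. Its brighter probe set read 12.22 and 11.47 in ascites and 9.64, 9.60 and 10.23 in FBS (log2 signal). The lowest ascites array lay 1.24 above the highest FBS array, and the ascites arrays were 0.75 apart, the widest gap between them of any of the 17 probe sets. The mean was 11.85 ± 0.53 (SD, n = 2) in ascites and 9.82 ± 0.35 (SD, n = 3) in FBS, a 4.06-fold rise (log2 change 2.02, SE 0.32, adjusted p = 0.0490 by limma over all genes). The second probe set, at 11.72 and 11.08 in ascites and 9.05, 8.80 and 9.52 in FBS, changed by 2.28 (SE 0.31, 4.85-fold). In the fit over all probe sets this second one passed (adjusted p = 0.0397) and the brighter one did not (adjusted p = 0.0525), so the call for Gclc lay at the threshold even though the 2 probe sets moved alike. Only 40 of the 12393 genes had a larger log2 rise.

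Gclm encodes the modifier subunit, which raises the affinity of the ligase for glutamate and eases its inhibition by glutathione. It read 12.52 and 12.50 in ascites and 11.31, 11.36 and 11.74 in FBS. The ascites arrays were nearly equal and both lay above every FBS array. Its mean was 12.51 ± 0.01 (SD, n = 2) in ascites and 11.47 ± 0.24 (SD, n = 3) in FBS, a 2.06-fold rise (log2 change 1.04, SE 0.15, adjusted p = 0.0432 by limma). The log2 change of the catalytic subunit was thus about 1 unit larger than that of the modifier subunit. That difference between the genes was not tested.

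Gss, glutathione synthetase, carries out the second step and adds glycine. It read 9.20 and 9.13 in ascites and 8.36, 8.41 and 8.86 in FBS. The groups did not overlap, but FBS replicate 3 lay nearer to the ascites arrays than to the other FBS arrays. Its log2 change of 0.62 (SE 0.18) did not pass (adjusted p = 0.131 by limma), with a 95% confidence interval of 0.14 to 1.10.

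Gsr, glutathione reductase, returns oxidised glutathione to its reduced form with NADPH. Its brighter probe set read 11.03 and 10.80 in ascites and 10.25, 10.17 and 10.64 in FBS, and its log2 change of 0.56 (95% confidence interval 0.08 to 1.04) did not pass (adjusted p = 0.156 by limma). The other probe set read 9.78 and 9.50 in ascites and 8.95, 8.62 and 8.68 in FBS, a change of 0.89 (SE 0.15, adjusted p = 0.0551 by limma over all probe sets). The probe sets of Gsr differed in where FBS replicate 3 lay: 0.43 above the mean of the other FBS arrays in the brighter one and 0.11 below it in the dimmer one. Both had higher signal in each ascites array than in any FBS array.

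Txnrd1 encodes the cytosolic selenoenzyme that reduces thioredoxin with NADPH. Its brightest probe set read 13.13 and 13.34 in ascites and 11.56, 11.54 and 11.89 in FBS. The mean was 13.24 ± 0.15 (SD, n = 2) in ascites and 11.66 ± 0.20 (SD, n = 3) in FBS, a 2.97-fold rise with the smallest p of the members (log2 change 1.57, SE 0.15, adjusted p = 0.0218 by limma). All 3 of its probe sets rose in the fit over probe sets. The second read 8.66 and 9.08 in ascites and 6.96, 6.78 and 7.36 in FBS (log2 change 1.84, adjusted p = 0.0354). Its FBS values lie below the highest reading of the macrophage marker Cd14 (7.74), so its fold is uncertain. The third read 5.87 and 6.14 in ascites and 4.59, 4.68 and 4.75 in FBS (log2 change 1.33, adjusted p = 0.0211). Its FBS values lie within the range of the marker medians, and its ascites values lie below the T cell marker Cd4 (6.81 to 7.11). The third was therefore not shown to lie above background on any array, and its fold is uncertain. In contrast to Gclc, all 3 had ascites replicate 3 above ascites replicate 2, by 0.21 to 0.42. Of the 5 members with several probe sets, Txnrd1 was the only one for which all of them passed.

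Srxn1 encodes sulfiredoxin, which restores peroxiredoxins that have been over-oxidised, and is a known NRF2 target. Its brightest probe set read 9.83 and 10.12 in ascites and 8.85, 8.63 and 9.17 in FBS, a log2 change of 1.09 (SE 0.20, 95% confidence interval 0.56 to 1.62) that did not pass (adjusted p = 0.0590 by limma). The 4 probe sets of this gene disagreed in size. The second read 8.79 and 8.49 in ascites and 7.39, 7.46 and 8.28 in FBS (log2 change 0.93, SE 0.32), and the third read 6.70 and 6.66 in ascites and 6.12, 5.79 and 6.56 in FBS (log2 change 0.52, SE 0.24). The remaining one was flat, at 6.46 and 6.38 in ascites and 6.38, 6.38 and 6.39 in FBS. Its change was 0.04 (95% confidence interval -0.10 to 0.18). This probe set and the third read below the T cell marker Cd4 (6.81 to 7.11), so neither was shown to lie above background. With the mean of all 4, these dim ones included, as the value of the gene the change was 0.65 (adjusted p = 0.118 by limma). None of the 4 passed over all probe sets (adjusted p between 0.0628 and 0.716).

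Nqo1 encodes the quinone reductase that is widely used as a readout of NRF2 activity. It read 9.64 and 9.40 in ascites and 7.90, 7.86 and 9.52 in FBS. FBS replicate 3 lay between the ascites arrays, at exactly their mean of 9.52, and 1.64 above the mean of the other FBS arrays. The groups therefore overlapped, and the log2 change of 1.09 had an SE of 0.59 and a 95% confidence interval of -0.51 to 2.70 (adjusted p = 0.369 by limma). A change of that width leaves the sign unsettled. Of all genes, 102 had a larger absolute distance between FBS replicate 3 and the other FBS arrays than Nqo1. Without FBS replicate 3 the change was 1.64 (adjusted p = 0.0110 by limma), a value that rests on FBS replicates 1 and 2 alone.

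Nfe2l2, which encodes NRF2, read 12.94 and 12.65 in ascites and 12.59, 12.65 and 12.61 in FBS. One ascites array stood above the FBS arrays and the other was level with FBS replicate 2. The signal changed by 0.18 on the log2 scale (SE 0.10, adjusted p = 0.391 by limma), and the 95% confidence interval of -0.10 to 0.45 spans 0.934-fold to 1.37-fold. The value depended on the ascites array: it was 0.03 without ascites replicate 2 and 0.32 (adjusted p = 0.131) without ascites replicate 3. None of these values speaks to NRF2 protein.

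Keap1 was the only member gene with a lower signal in ascites. It read 9.54 and 9.46 in ascites and 9.90, 9.96 and 10.20 in FBS, a log2 change of -0.52 (SE 0.11, 95% confidence interval -0.82 to -0.22), which did not pass over all genes (adjusted p = 0.0791 by limma). Its second probe set gave nearly the same value, with 7.45 and 7.25 in ascites, 7.89, 7.91 and 7.78 in FBS and a change of -0.51 (SE 0.09, adjusted p = 0.0590 over all probe sets). With the mean of both probe sets as the value of the gene, Keap1 passed (log2 change -0.52, adjusted p = 0.0339 by limma), and without FBS replicate 3 it passed with a change of -0.43 (adjusted p = 0.0255). In both probe sets each ascites array lay below every FBS array.

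**Figure D2:**
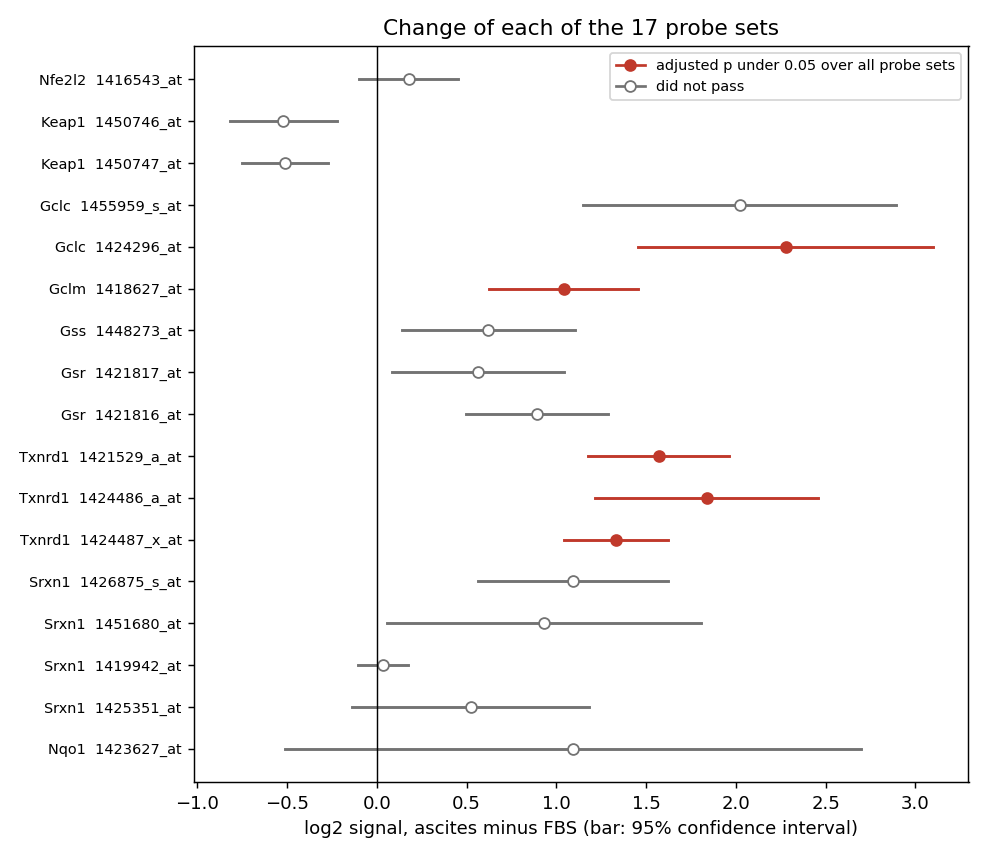
Log2 change (ascites minus FBS) of each of the 17 probe sets, with bars for the 95% confidence interval of the limma fit over all 20380 probe sets. Filled red points passed at an adjusted p of 0.05, which were 1 of Gclc, 1 of Gclm and 3 of Txnrd1, and open grey points did not. Only the 2 Keap1 probe sets lie below 0, and Nqo1 has the widest interval.

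FBS replicate 3 lay on the ascites side of the other FBS arrays for most of the members. It was above both FBS replicates 1 and 2 in 8 of the 9 genes, against 41.7% of all genes, with a median difference of 0.43 against 0.015 over all genes. The exception was Nfe2l2 (-0.01), and the difference ran between 0.27 for Keap1 and 1.64 for Nqo1. For Keap1 the higher signal of FBS replicate 3 was away from ascites in the brighter probe set. In the dimmer one the difference was -0.12, toward ascites. What set this array apart was not tested. Without it, 7 member genes rose and 1 fell, against 9.17% of all genes risen and 10.9% fallen in that fit: Gss (log2 change 0.78, adjusted p = 0.0107 by limma), Gsr (0.70, adjusted p = 0.0341), Srxn1 (1.24, adjusted p = 0.0255) and Nqo1 then passed upward beside Gclc, Gclm and Txnrd1, and Keap1 passed downward. That fit takes its FBS spread from 2 nearly alike arrays, so its p-values may be too small.

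The calls depended on having every other array. Without FBS replicate 1, FBS replicate 2, ascites replicate 2 or ascites replicate 3, 0 of all genes passed, and the adjusted p by limma was 0.142 to 0.218 for Gclc, 0.169 to 0.205 for Gclm and 0.104 to 0.151 for Txnrd1. With FBS replicates 1 and 2 averaged as 1 sample, 0 genes passed and the adjusted p by limma was 0.191 for Gclc, 0.173 for Gclm and 0.130 for Txnrd1. The sizes moved less, with log2 changes of 1.65 to 2.40 for Gclc, 0.96 to 1.18 for Gclm and 1.47 to 1.69 for Txnrd1 over the 5 ways of leaving out 1 array.

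**Figure D3:**
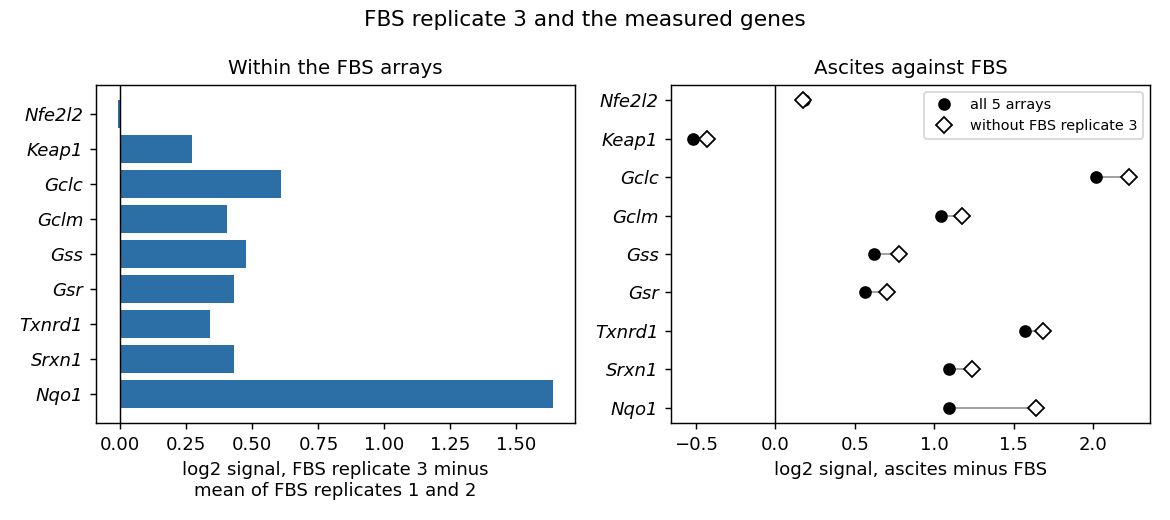
Left, the log2 signal of FBS replicate 3 minus the mean of FBS replicates 1 and 2 for each gene; right, the log2 change between ascites and FBS with all 5 arrays (filled circles) and without FBS replicate 3 (open diamonds). Nqo1 has the longest bar (1.64) and moves most on the right, with a change of 1.09 over all arrays and 1.64 without that array.

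Related genes were taken from lists of the same pathways, which were also chosen with earlier results of these data known. Their counts stand against 2.69% of all genes risen and 2.59% fallen with all 5 arrays, and 9.17% risen and 10.9% fallen without FBS replicate 3. Among partners and regulators of NRF2, 1 of 13 measured genes rose and 0 fell (median log2 change 0.38). This was Sqstm1, which encodes p62, the autophagy receptor that binds KEAP1 and is itself an NRF2 target. It read 13.60 and 13.71 in ascites and 12.16 on each of the FBS arrays, a 2.82-fold rise (SE 0.06 on the log2 scale, adjusted p = 0.0107 by limma). The other partners did not pass, among them the small MAF genes Mafk (0.66), Mafg (0.54) and Maff (0.38), the ligase scaffold gene Cul3 (-0.05) and the competing repressor gene Bach1 (-0.09). The dimmer probe sets of Cul3 changed by 0.65 and 0.70, with each ascites array above every FBS array, and that of Bach1 by 0.27. None of these passed over all probe sets. Without FBS replicate 3, 4 rose and 1 fell.

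Of 21 other NRF2 targets measured, 5 rose and 0 fell, and 19 were higher in ascites (median log2 change 0.58). The glutathione S-transferase gene Gsta3 read 10.31 and 10.62 in ascites and 7.72, 7.67 and 6.83 in FBS, and the cystine transporter gene Slc7a11 read 9.30 and 9.49 in ascites and 7.08, 7.14 and 7.67 in FBS. The FBS values of both genes lie below the highest reading of the macrophage marker Cd14 (7.74), so how far they rose is uncertain. Blvrb, biliverdin reductase B, rose 3.52-fold (log2 change 1.81, SE 0.16, adjusted p = 0.0196 by limma), with readings of 10.46 and 10.11 in ascites and 8.35, 8.40 and 8.66 in FBS. The other risen targets had small changes and tight arrays, namely the transferase gene Gstp1 (log2 change 0.33, SE 0.05) and the aldo-keto reductase gene Akr1b8 (0.31, SE 0.05). Of the probe sets not used for the gene fit, one of Gsta3 and one of the malic enzyme gene Me1 (log2 change 0.78, adjusted p = 0.0480 by limma) also rose over all probe sets. Hmox1, heme oxygenase 1, which NRF2 shares with other regulators, read 9.47 and 9.54 in ascites and 8.17, 8.12 and 8.84 in FBS and did not pass (log2 change 1.13, SE 0.25, adjusted p = 0.0854). Without FBS replicate 3, 14 of the 21 rose and 1 fell. Probe sets may not tell close paralogs of the transferase families apart.

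Of 18 measured thioredoxin, peroxiredoxin and glutaredoxin genes, 0 rose and 1 fell, with a median log2 change of -0.08. The gene that fell was Prdx4, the peroxiredoxin of the endoplasmic reticulum, at 11.20 and 10.92 in ascites and 12.29, 12.36 and 12.23 in FBS (2.35-fold lower, log2 change -1.23, SE 0.11, adjusted p = 0.0196 by limma), and all 3 of its probe sets fell. Over all probe sets 1 of the 6 of Txnl1, a thioredoxin-like gene, rose, with 10.17 and 10.27 in ascites and 9.24, 9.22 and 9.37 in FBS (log2 change 0.94, adjusted p = 0.0209 by limma), whereas its brightest changed by 0.20. The mitochondrial reductase gene Txnrd2 changed by -0.58 (SE 0.11, adjusted p = 0.0679), its relative Txnrd3 by 1.08 (SE 0.25, adjusted p = 0.0891) and the substrate thioredoxin 1 (Txn1) by -0.09 (SE 0.10), and none of these 3 passed. The difference between Txnrd1 and these genes was not tested. Without FBS replicate 3, 4 of the 18 rose and 3 fell.

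Of 16 measured genes that use or break down glutathione, 0 rose and 1 fell (median log2 change 0.18). The one that fell was Glo1, the glyoxalase that detoxifies methylglyoxal with glutathione (log2 change -0.42, SE 0.06, adjusted p = 0.0438 by limma). Its other probe sets changed by -0.225 and -0.02 and did not pass. Hagh, the glyoxalase that follows Glo1, was higher in ascites on each of its 3 probe sets (0.68, 0.76 and 0.61), of which 1 rose over all probe sets (adjusted p = 0.0341 by limma) and 2 did not pass (adjusted p = 0.0585 and 0.0587). Of 4 superoxide and peroxide enzymes, 0 changed, and catalase (Cat) had the smallest p (log2 change 0.62, SE 0.17, adjusted p = 0.118). Without FBS replicate 3, 5 of the 16 genes of glutathione use rose and 2 fell, and 1 of the 4 enzymes rose.

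Of 5 measured genes of cysteine supply, the substrate side of Gclc, 3 rose and 0 fell (median log2 change 1.41), with and without FBS replicate 3. Cth, which releases cysteine from cystathionine, read 11.40 and 11.39 in ascites and 7.44, 7.23 and 6.68 in FBS. Its FBS values lie below the highest reading of the macrophage marker Cd14 (7.74), so the size of its rise is uncertain. Slc3a2, the heavy chain partner of the cystine transporter, read 12.79 and 12.96 in ascites and 11.53, 11.50 and 11.38 in FBS (2.65-fold, adjusted p = 0.0158 by limma), and the third was Slc7a11. These genes are also known targets of the amino acid response factor ATF4. Cbs, which makes cystathionine, stayed between 6.92 and 6.97 on all 5 arrays. These values lie within the range of the T cell marker Cd4 (6.81 to 7.11), so Cbs was not shown to lie above background.

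**Figure D4:**
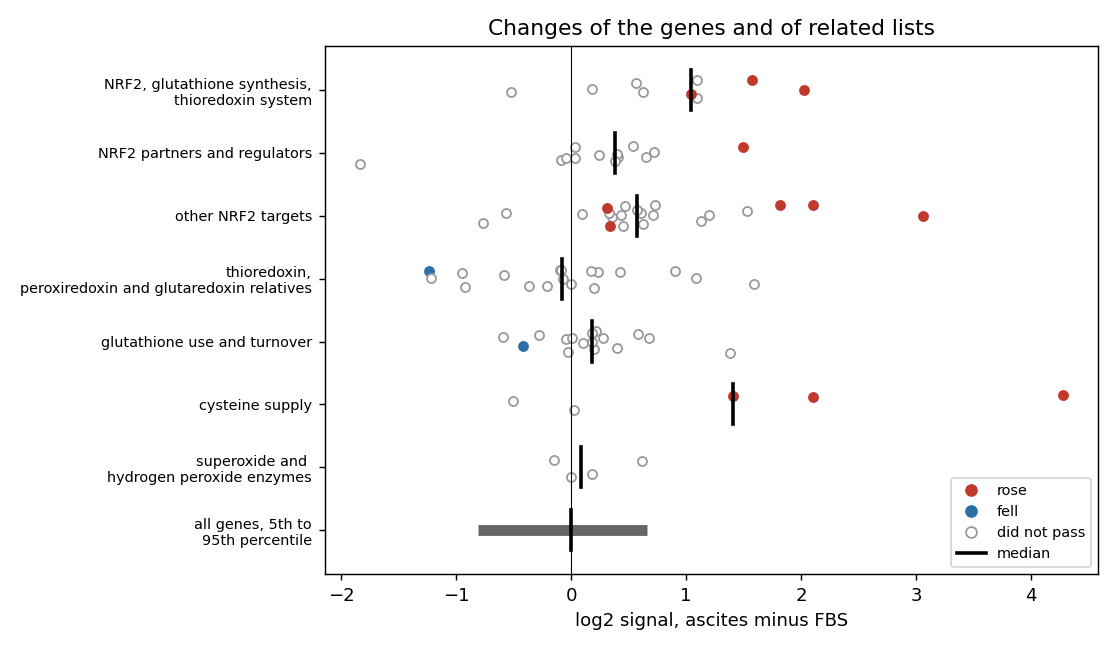
Log2 change (ascites minus FBS) of the 9 measured genes and of the genes of 6 related lists, 1 point per gene with vertical scatter for legibility. Red points rose, blue points fell, open points did not pass, and black bars are list medians, which run between -0.08 for thioredoxin relatives and 1.41 for cysteine supply; the grey bar spans the 5th to 95th percentile of all genes (-0.81 to 0.66).

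The genes whose pattern over the 5 arrays was most like that of each risen member were found by the root mean square distance between values centred on the gene's own mean, over all genes outside the 10. For Gclc these were Saa3, an acute phase gene (0.174), Blvrb (0.203) and Sat1, a polyamine acetyltransferase gene (0.244). For Gclm they were Map6, which stabilises microtubules (0.051), the deubiquitinase gene Mindy3 (0.059) and the membrane protein gene Smim3 (0.063). For Txnrd1 they were the tryptophanyl and arginyl tRNA synthetase genes Wars (0.052) and Rars (0.079) and Trim16 (0.082). Distances are in log2 units over 5 arrays, a number too small to tell a shared pattern from a shared difference between the groups, and all 9 genes also rose by the test. Wars, for instance, read 11.45 and 11.66 in ascites and 9.82, 9.79 and 10.07 in FBS, with ascites replicate 3 above ascites replicate 2 as in Txnrd1.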

How the data were processed

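Total RNA of ID8 cells was measured on 5 Affymetrix mouse arrays. Per the submitters' processing notes, the authors processed the scans in Affymetrix Expression Console. The version is not given in the sources used here, nor is the way probes were summarised. From their range the deposited values were taken as log2 signals; they carry 2 decimals, had array medians of 7.4 to 7.47, and were used with no further normalization. Having 5 arrays limits the precision, and no detection call was used.

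The platform annotation named the probe sets: 20380 had 1 gene, 691 several and 1555 none listed, and 64 were array controls. Each gene took the values of its brightest probe set on average. The ascites and FBS arrays were fitted by limma (version 3.58.1, R 4.3.3) with lmFit and eBayes and no covariate, once over genes and once over probe sets. Tests were two-sided, with Benjamini-Hochberg adjustment and a threshold of 0.05. The calculation was tested on simulated data. There, 66 of 100 genes with a log2 change of 1 passed in the right direction, and 84 of 100 with a change of 2. A change of that size can therefore fail to pass. Alternatives were other normalizations, a filter on the lowest 25%, a prior trend, array weights, single arrays left out, FBS replicates 1 and 2 averaged, a replicate block and the mean over probe sets.

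The members and lists were chosen with earlier results of these data known. The genes named were all members, up to 4 genes past the threshold with the largest change from each related list (or the one with the smallest p), and the 3 genes nearest in pattern to each risen member. Other list genes were named after their values were seen.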

Additional observations from a re-analysis of the deposited data

How the results depend on the processing

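The 9 member genes kept their direction under all 13 alternatives. Leaving out single arrays gave 0 to 2494 genes changed, 0 to 3404 probe sets changed and 0 to 7 member genes risen, where the high values are without FBS replicate 3 and 0 holds for each other array (2016 to 2748 genes at an unadjusted p under 0.05 by limma in those 4 fits). Averaging FBS replicates 1 and 2 gave 0 genes, 0 probe sets and 0 member genes (2128 genes at an unadjusted p under 0.05), with 1 sample fewer. Array weights gave 2612 genes, 3545 probe sets and 7 member genes. Where a group was left with 1 ascites array, it was assumed to vary like the FBS arrays. With a replicate block the counts were 0 genes, 0 probe sets and 0 member genes risen (1891 genes at an unadjusted p under 0.05); only 2 replicate numbers are shared, and same-numbered arrays deviated together by a correlation over genes of 0.03 for number 2 and 0.04 for number 3, so the numbers were not taken as pairs. Srxn1 passed with quantile normalization (adjusted p = 0.0404), with arrays centred on their medians (0.0423) and with the lowest 25% of genes left out (0.0430), and Gclc did not pass with a prior trend (0.0525). The 5 arrays carry no detection call, so changes of dim probe sets are limited by an unknown background.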

Other observations

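Several genes of glutathione use and NRF2 signalling differed more within the FBS arrays than between the groups, and were picked after their values were seen. Oplah, which opens 5-oxoproline to glutamate in glutathione turnover, read 9.77 and 9.76 in ascites and 11.34, 11.43 and 8.29 in FBS. Nfe2l3, an NRF2 relative, read 7.45 and 6.75 in ascites and 9.51, 9.63 and 7.67 in FBS, with FBS replicate 3 nearest to the ascites arrays. Gpx1, a glutathione peroxidase, read 13.30 and 13.10 in ascites and 12.25, 12.26 and 13.34 in FBS. Its FBS replicate 3 lay just above both ascites arrays, where that of Nqo1 lay between them. Gstm1, a glutathione S-transferase, went the other way, with 9.69 and 9.80 in ascites and 9.04, 8.97 and 7.64 in FBS. None of these 4 passed the test with all 5 arrays.

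The stress-response genes Sesn2, a sestrin that promotes KEAP1 breakdown, and Chac1, which degrades glutathione, were higher in both ascites arrays without passing. Sesn2 read 10.08 and 10.31 in ascites and 8.90, 8.90 and 8.01 in FBS (adjusted p = 0.0748 by limma), and Chac1 read 11.88 and 11.81 in ascites and 10.78, 10.65 and 9.96 in FBS (adjusted p = 0.0715). Sesn1, another sestrin, was lower, with 8.44 and 7.96 in ascites and 9.54, 9.54 and 9.18 in FBS (adjusted p = 0.0522). In these 3 genes FBS replicate 3 lay below the other FBS arrays, unlike in the 8 members above.

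Exact ties between arrays were present: 112 genes were listed at 1 identical value throughout, and Sqstm1 had 12.16 on all 3 FBS arrays. The deposited values of such genes show no spread over the tied arrays, which was not shown to hold for the transcripts themselves. The SE of 0.06 for the log2 change of Sqstm1 takes in these ties. What produced the ties was not tested.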
